A study of Mus musculus with 12 samples.

Results

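The genes described here are 10 regulators and markers of the epithelial-to-mesenchymal transition (EMT), followed across 4 cell types of the gastrulating mouse embryo. They are the zinc-finger repressors Snai1 and Snai2, the zinc-finger homeodomain repressors Zeb1 and Zeb2, the basic helix-loop-helix factors Twist1 and Twist2, the adhesion molecules Cdh2 and Cdh11, the intermediate filament gene Vim and the homeobox gene Prrx1. They were chosen by name, and all 10 were found among the 38924 genes counted. RNA was sequenced in 12 libraries of cells sorted from embryos at stage E7.25, 3 libraries for each type. All embryos were of the line Foxa2Cre:Rosa26-YFP, in which Cre recombinase expressed under Foxa2 switches on yellow fluorescent protein (YFP), so that YFP marks a history of Foxa2 expression and not the gene's present level. The 4 types were cardiac mesoderm with YFP (ventricular in the labels), cardiac mesoderm without YFP (non-ventricular in the labels), EPCAM+ endoderm and KDR+ hematopoietic mesoderm. The labels do not say whether the 3 libraries of a type came from separate embryos or litters, so p-values measure the spread between these libraries, which may be technical.

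In an EMT, epithelial cells lose their lateral junctions and apical-basal polarity and become migratory. SNAIL and ZEB proteins bind E-box sequences in the promoters of epithelial genes, among them Cdh1 (E-cadherin), and repress them, while N-cadherin, vimentin and fibronectin are the usual signs of the mesenchymal state. At gastrulation epiblast cells pass through this transition in the primitive streak to form mesoderm, and definitive endoderm cells leave the same region and then take their place in an epithelial sheet.

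Gene counts ran from 4472800 to 7888631 per library, so that 3 counts, the limit that a count of 0 allows, came to between 0.355 and 0.720 CPM, a gene's counts relative to the scaled total of its library. Kdr, the marker of the hematopoietic sort, had 662 to 962 CPM in hematopoietic mesoderm, 442 to 620 CPM in the cardiac fractions and at most 16.3 CPM in endoderm. The 9 cardiac mesoderm markers summed to between 1914 and 2541 CPM in the 6 cardiac libraries, the 8 endoderm markers to between 1162 and 1524 CPM in endoderm and at most 147 CPM elsewhere, and the 10 hematopoietic and endothelial markers to between 1545 and 2384 CPM in hematopoietic mesoderm. Replicate 3 of hematopoietic mesoderm stood apart. It had 415 CPM of the cardiac factor Hand1, against 47.3 and 81.1 CPM in replicates 1 and 2, and 0.209 CPM of the red cell factor Gata1, against 74.0 and 46.4 CPM. Erg and Pecam1 were also low in it, at 0.837 and 0.209 CPM. Other markers differed less or not in that direction. Cdh5 had 145 CPM against 101 and 159 CPM, Tal1 270 CPM against 469 and 355 CPM, and the cardiac marker Mesp1 0 counts against 2 and 1. The cardiac marker Pdgfra had 48.1 CPM against 1.92 and 31.4 CPM, where the cardiac libraries had 203 to 386 CPM. The correlations of replicate 3 with replicates 1 and 2 across 14170 genes were 0.761 and 0.793, against 0.831 between those libraries. They were 0.814 to 0.829 among the YFP-positive cardiac libraries. Results that rest on replicate 3 are therefore given with and without it. The endoderm libraries also held the visceral endoderm markers (8 of 8 detected, 1571 to 4685 CPM summed, at most 63.8 CPM in the other types) and more of the epiblast list (1503 to 1611 CPM, against 379 to 845 CPM elsewhere). The part of these cells in the endoderm values was not tested.

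Zeb1, Zeb2 and Cdh11 were the members that rose in mesoderm relative to endoderm. In the mean of the 3 mesoderm types against endoderm, these 3 genes were called higher and Prrx1 was called lower, 4 of the 9 members that could be tested, where a call is an adjusted p under 0.05 in edgeR's quasi-likelihood test. Among all genes tested 7.43% were called in this comparison, 1.93% higher and 5.5% lower. The median log2 fold change of the 9 members was 2.52, against -0.07 for all genes. Prrx1 passed the filter on low counts only through its endoderm libraries, so that a call, if made, could only be lower in mesoderm. Twist2 was not tested because it had 0 counts in all 12 libraries. In every one of the 9 mesoderm libraries Zeb1, Zeb2 and Cdh11 exceeded all 3 endoderm libraries, a pattern shared by 2.55% of genes. Each of the 3 was also called lower in endoderm than in all of the other types separately, as 0.466% of genes were, and no member was called higher there than in all others (0.303% of genes). For Cdh11 the call against hematopoietic mesoderm was lost with the replicate number as a block. No member was called higher or lower in hematopoietic mesoderm than in every other type, where 0.0917% of genes were higher and 0.318% lower. With hematopoietic replicate 3 left out, Snai1 and Cdh2 were called lower in hematopoietic mesoderm than in every other type, a pattern not counted over all genes in that fit. The same fit called 4.28% of genes between hematopoietic mesoderm and endoderm, in either direction. It called 2.79% and 1.43% between hematopoietic mesoderm and the YFP-positive and YFP-negative cardiac fractions. With that library left out 5 members were called in the 3 mesoderm types against endoderm, the same 4 and Vim, against 9.52% of genes. The comparisons of single types with endoderm share its 3 libraries. In bulk libraries a smaller share of expressing cells and less RNA per cell cannot be told apart.

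**Figure D1:**
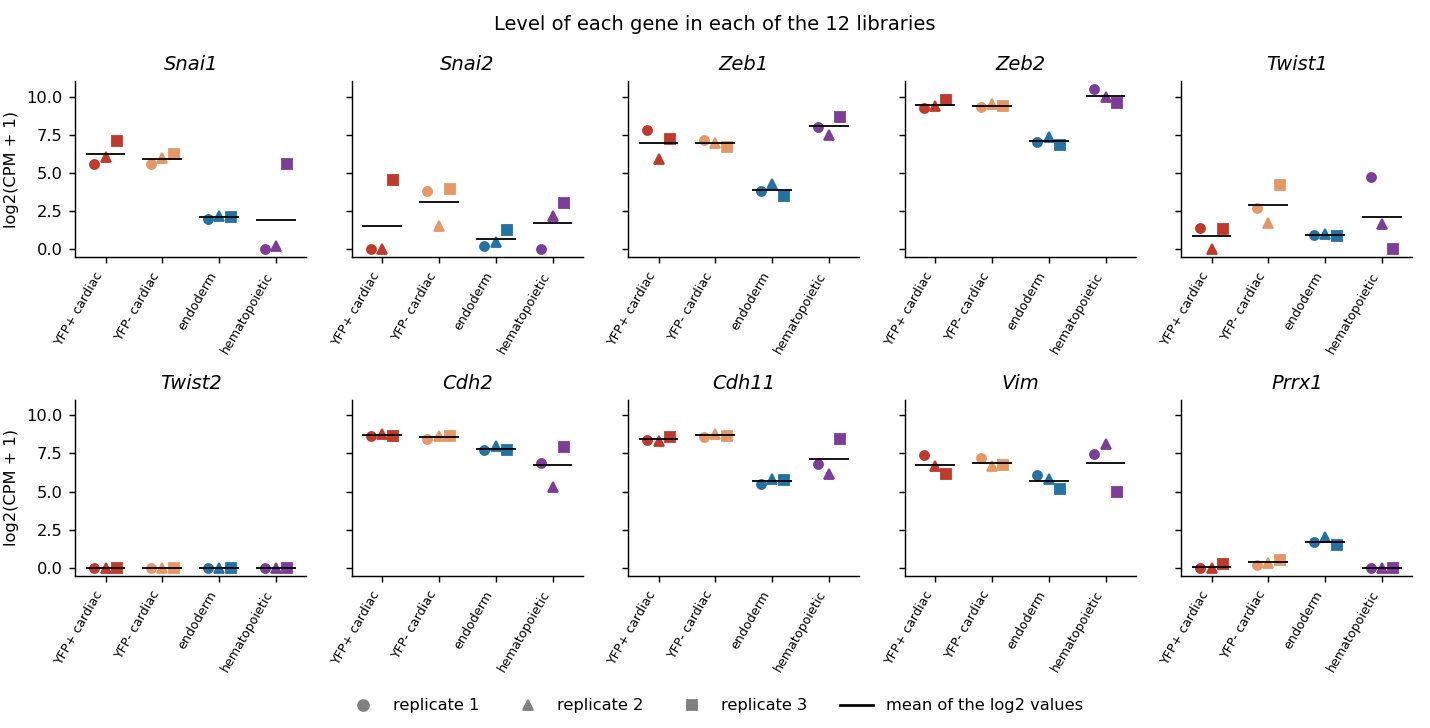
Level of each of the 10 genes in each of the 12 libraries, as log2(CPM + 1) on the vertical axis, by cell type on the horizontal axis; symbols give the replicate number and lines the mean of the log2 values. Zeb1, Zeb2 and Cdh11 sit lower in all 3 endoderm libraries than in the 9 mesoderm libraries, Twist2 is at 0 throughout, and replicate 3 of hematopoietic mesoderm is apart for Snai1, Cdh11 and Vim.

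Snai1 (chr2:167538195-167542814 in GRCm38, plus strand), the repressor needed for mesoderm to lose its epithelial character at gastrulation, had its highest levels in the cardiac libraries. It measured 47.9, 64.5 and 136 CPM in the 3 libraries of YFP-positive cardiac mesoderm and 47.8, 62.9 and 75.7 CPM in those of YFP-negative cardiac mesoderm. In endoderm it measured 3.01, 3.61 and 3.43 CPM. In hematopoietic mesoderm replicate 1 had 0 counts, replicate 2 had 1 count (0.173 CPM) and replicate 3 had 223 counts (46.7 CPM). All 6 cardiac libraries therefore lay above all 3 hematopoietic libraries, as they did for 4.59% of genes tested (the reverse held for 3.08%, with no member among them), but replicate 3 nearly reached the lowest cardiac library. In the fit of all 12 libraries together edgeR called no Snai1 difference. The mean of the 3 mesoderm types was 3.68 ± 1.40 (SE) log2 units above endoderm, with an adjusted p of 0.155, and the cardiac fractions were 2.20 ± 1.30 above hematopoietic mesoderm, with an adjusted p of 0.36. DESeq2 and limma voom did call each cardiac fraction higher than endoderm with all libraries (voom adjusted p = 0.00102 with YFP and 0.000425 without YFP), and DESeq2 called the 3 mesoderm types together (adjusted p = 0.00801). Fits of edgeR to only the 2 types compared also called each cardiac fraction higher than endoderm.

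Without replicate 3 of hematopoietic mesoderm edgeR's Snai1 values changed in direction as well as in their calls. The cardiac fractions then exceeded hematopoietic mesoderm by 9.25 ± 1.02 log2 units (adjusted p = 0.000754), a fitted value that depends on how 0 counts are treated. Hematopoietic mesoderm was then called lower than endoderm, at -4.84 log2 units (adjusted p = 0.0166), where with all libraries it had been 2.21 log2 units above it without a call (adjusted p = 0.406). YFP-positive and YFP-negative cardiac mesoderm were each called higher than endoderm in that fit, by 4.62 ± 0.62 and 4.20 ± 0.61 log2 units, with adjusted p of 0.00158 and 0.00305 against 0.153 and 0.278 with all libraries.

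Of the 6 members with a sequence in the RefSeq promoter table (GRCm38.p6), Snai1 was the only one whose window of 250 bases before to 50 after the start held the E2-box CACCTG or its reverse complement CAGGTG, the 6-base site that SNAIL and ZEB proteins recognise. The site starts at position -126 from the gene start. The 250 bases before the start are shown because Snai1 is itself a member of the family that reads this site, with the site in capitals (chr2:167537945-167538194, plus strand):
Snai1: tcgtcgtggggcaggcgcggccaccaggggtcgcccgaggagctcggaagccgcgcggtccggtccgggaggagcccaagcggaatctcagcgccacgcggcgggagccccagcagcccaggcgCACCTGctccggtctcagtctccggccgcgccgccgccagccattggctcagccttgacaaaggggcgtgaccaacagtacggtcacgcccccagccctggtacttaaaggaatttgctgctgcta
The windows of Zeb2, Twist1, Twist2, Vim and Prrx1 did not hold these letters. Of all 27025 genes in the table, 22.6% held the site in at least 1 window.

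Snai2 (chr16:14705852-14709385, plus strand), the close relative known from neural crest, was scarce and uneven. It had 0 counts in replicates 1 and 2 of YFP-positive cardiac mesoderm and 122 counts (22.5 CPM) in replicate 3. In YFP-negative cardiac mesoderm it measured 13.2, 1.96 and 14.4 CPM. Endoderm had 0.158, 0.387 and 1.42 CPM, and hematopoietic mesoderm 0, 3.63 and 7.12 CPM. Values within each mesoderm type were widely spread and overlapped between these types, and edgeR called no comparison (adjusted p = 0.473 for the 3 mesoderm types against endoderm). Limma voom called YFP-negative cardiac mesoderm against endoderm (adjusted p = 0.0485, against 0.712 in edgeR). Per kilobase of exon, Snai1 exceeded Snai2 in 10 of 12 libraries. The exceptions were hematopoietic replicate 1, where neither was counted, and replicate 2, where the value was 0.106 CPM per kilobase for Snai1 and 1.79 for Snai2.

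Zeb2 (chr2:44983632-45117395, minus strand), known for its roles in neural crest and in blood development, was lower in endoderm than in every mesoderm type. It measured 623, 664 and 871 CPM in YFP-positive cardiac mesoderm and 632, 746 and 661 CPM in YFP-negative cardiac mesoderm. Endoderm had 129.6, 164 and 113 CPM. Hematopoietic mesoderm had 1455, 1007 and 784 CPM, of which replicate 3, the lowest, fell within the range of the YFP-positive cardiac libraries. The 3 mesoderm types together were 2.57 ± 0.21 log2 units above endoderm, or 5.95-fold (adjusted p = 1.88e-05). Each type passed on its own, by 2.40 ± 0.22, 2.32 ± 0.22 and 2.99 ± 0.23 log2 units for YFP-positive cardiac, YFP-negative cardiac and hematopoietic mesoderm. Zeb2 was 0.63 ± 0.18 log2 units lower in the cardiac fractions than in hematopoietic mesoderm, which missed the threshold with all libraries (adjusted p = 0.0794). It passed without hematopoietic replicate 3, at -0.81 ± 0.17 log2 units (adjusted p = 0.0227).

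Zeb1 (chr18:5591860-5775467, plus strand), the other member of that pair, was also lower in endoderm. Its values were 228, 58.5 and 150.1 CPM in YFP-positive cardiac mesoderm and 140.3, 124 and 106 CPM in YFP-negative cardiac mesoderm. Endoderm had 13.5, 18.6 and 10.5 CPM, and hematopoietic mesoderm 254, 179.7 and 408 CPM. The lowest mesoderm value, replicate 2 of YFP-positive cardiac mesoderm, was in a library that also held 174 CPM of the blood factor Tal1 and 58.7 CPM of the endothelial gene Pecam1, against at most 21.9 and 4.24 CPM in the other libraries of its type. The sum of its hematopoietic and endothelial markers was 428 CPM, against 26.6 and 119 CPM, with the markers Gata1 and Erg at 3 counts or fewer, and the part of this in its Zeb1 level was not tested. The 3 mesoderm types together exceeded endoderm by 3.59 ± 0.45 log2 units, or 12.05-fold (adjusted p = 0.000541). The separate differences were 3.35 ± 0.48, 3.12 ± 0.47 and 4.30 ± 0.50 log2 units for YFP-positive cardiac, YFP-negative cardiac and hematopoietic mesoderm. The cardiac fractions had 1.07 ± 0.36 log2 units less Zeb1 than hematopoietic mesoderm, which was not called (adjusted p = 0.126), nor was it called without hematopoietic replicate 3, at -0.69 ± 0.39 (adjusted p = 0.336).

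Per kilobase of exon Zeb2 exceeded Zeb1 in 11 of 12 libraries. Mean Zeb2 was 36.1 ± 6.66 CPM per kilobase (SD, n = 3) and Zeb1 14.2 ± 8.26 in YFP-positive cardiac mesoderm. In hematopoietic mesoderm Zeb2 was 54.3 ± 17.1 and Zeb1 27.3 ± 11.3 CPM per kilobase. The exception was hematopoietic replicate 3, where Zeb2 had 39.3 and Zeb1 39.7 CPM per kilobase. Exons of Zeb2 overlap those of the antisense gene Zeb2os and of small RNA genes, by up to 653 bases each, and exons of Zeb1 those of Gm10125 over 198 bases, and the strand setting of the counting is not given in the sources used here.

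Twist1 (chr12:33957671-33959829, plus strand), a basic helix-loop-helix factor known from cranial mesenchyme, was near the limit of detection in most libraries. It measured 1.66, 0 and 1.48 CPM in YFP-positive cardiac mesoderm and 5.51, 2.38 and 17.5 CPM in YFP-negative cardiac mesoderm. Endoderm had 0.950, 1.03 and 0.828 CPM. Hematopoietic mesoderm had 25.5 and 2.24 CPM in replicates 1 and 2 and 0 counts in replicate 3. The 3 YFP-negative cardiac libraries all lay above the 3 YFP-positive ones, as they did for 7.04% of genes and, among the members, also for Cdh11. The difference of YFP-positive minus YFP-negative, -2.99 ± 1.84 log2 units, was not called (adjusted p = 0.78), nor was any other for Twist1. Twist2 (chr1:91801461-91848028, plus strand), its close relative of the dermis, had 0 counts in all 12 libraries, which allows up to 0.720 CPM in the shallowest library. Its exons share 1477 bases with the antisense gene Gm29100, so that reads there may have been left unassigned.

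Cdh2 (chr18:16588877-16809246, minus strand), N-cadherin, was high and even within the cardiac fractions. It measured 402, 446 and 395 CPM in YFP-positive cardiac mesoderm and 354, 404 and 406 CPM in YFP-negative cardiac mesoderm. Endoderm was also well supplied, with 214, 252 and 210.0 CPM. Hematopoietic mesoderm had 119 and 38.8 CPM in replicates 1 and 2 and 243 CPM in replicate 3. Hematopoietic mesoderm, not endoderm, thus had the lowest mean, 134 ± 103 CPM against 225 ± 23.1 CPM (SD, n = 3), although the ranges of these types overlapped through replicate 3. The lowest cardiac value, 354 CPM, exceeded the highest of the endoderm and hematopoietic values, 252 CPM, so the cardiac fractions overlapped with neither. Cardiac libraries lay above all endoderm libraries for 5.24% of genes and above all hematopoietic ones for the 4.59% given for Snai1. The cardiac fractions exceeded hematopoietic mesoderm by 1.58 ± 0.40 log2 units, which just missed the threshold (adjusted p = 0.0531). Without hematopoietic replicate 3 the difference was 2.35 ± 0.34 log2 units and was called (adjusted p = 0.00344), and hematopoietic mesoderm was then also called lower than endoderm, by -1.52 ± 0.34 log2 units (adjusted p = 0.0289). The mean of the 3 mesoderm types differed from endoderm by 0.30 ± 0.35 log2 units (adjusted p = 0.789). Each cardiac fraction against endoderm was not called by edgeR (adjusted p = 0.35 and 0.646). It was called by limma voom and by edgeR fits of only the 2 types compared.

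Cdh11 (chr8:102632095-102785642, minus strand), the cadherin typical of loose mesenchyme, rose in every mesoderm type relative to endoderm. It measured 334, 316 and 385 CPM in YFP-positive cardiac mesoderm and 386, 437 and 404 CPM in YFP-negative cardiac mesoderm. Endoderm had 44.3, 55.8 and 53.0 CPM. Hematopoietic mesoderm had 112 and 70.1 CPM in replicates 1 and 2, between endoderm and cardiac mesoderm, and 355 CPM in replicate 3, within the cardiac range. The 3 mesoderm types were 2.52 ± 0.41 log2 units above endoderm (adjusted p = 0.0028), and the cardiac fractions alone were 2.75 ± 0.45 (YFP-positive) and 3.00 ± 0.46 (YFP-negative) log2 units above it. The YFP-positive call was lost without endoderm replicate 1 (adjusted p = 0.0659) or endoderm replicate 3. Hematopoietic mesoderm exceeded endoderm by 1.81 ± 0.44 log2 units (adjusted p = 0.0334). With the replicate number as a block, a fit that compares libraries of the same number, that call was lost, at 1.62 ± 0.41 log2 units (adjusted p = 0.0547). It was also lost when any 1 library of endoderm or of YFP-negative cardiac mesoderm was left out (adjusted p at most 0.136). When hematopoietic replicate 3 was left out the difference was 0.83 ± 0.21 (adjusted p = 0.0489). The cardiac fractions were 1.07 ± 0.38 log2 units above hematopoietic mesoderm with all libraries (adjusted p = 0.144) and 2.05 ± 0.22 above it without replicate 3 (adjusted p = 0.000566).

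Vim (chr2:13573927-13582826, plus strand), the intermediate filament gene most used as a mesenchymal marker, was called by edgeR in no comparison with all libraries. It measured 169, 100.5 and 71.0 CPM in YFP-positive cardiac mesoderm, 146, 100.5 and 104 CPM in YFP-negative cardiac mesoderm, and 67.3, 56.2 and 35.4 CPM in endoderm. In hematopoietic mesoderm replicates 1 and 2 had 176 and 282 CPM and replicate 3 had 29.9 CPM, the lowest of all 12 libraries. Both cardiac fractions lay above endoderm without overlap, as for 5.24% of genes, the lowest cardiac value being 71.0 CPM and the highest endoderm value 67.3 CPM. The 3 mesoderm types exceeded endoderm by 1.28 ± 0.52 log2 units, which was not called (adjusted p = 0.188). Without hematopoietic replicate 3 the difference of 1.45 ± 0.33 log2 units was called (adjusted p = 0.0178), as was hematopoietic mesoderm over endoderm, by 2.11 ± 0.40 log2 units (adjusted p = 0.0124). Limma voom called both differences with all libraries (adjusted p = 0.0174 and 0.0495). An edgeR fit of only the 2 types compared called YFP-negative cardiac mesoderm higher than endoderm (adjusted p = 0.0374).

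Prrx1 (chr1:163245119-163313710, minus strand), a homeobox gene of limb and craniofacial mesenchyme, was counted mainly in endoderm, at a very low level. It had 14, 24 and 15 counts in endoderm (2.22, 3.09 and 1.77 CPM), at most 3 counts in any cardiac library and 0 counts in hematopoietic mesoderm. Mean endoderm Prrx1 was 4.12, 5.23 and 3.80 times the level of 3 counts per library in YFP-positive cardiac, YFP-negative cardiac and hematopoietic mesoderm. These values leave out the error of the endoderm counts. The 5.23 is not a lower bound, because the YFP-negative libraries had 1, 2 and 3 counts. All 9 mesoderm libraries lay below the 3 endoderm libraries, as they did for 6.45% of genes. The call against the 3 mesoderm types (adjusted p = 0.0124) was lost when any of the 3 endoderm libraries was left out (adjusted p at most 0.0687), and the call against hematopoietic mesoderm (adjusted p = 0.045) held in 4 of 18 alternatives. It was lost with the replicate block (adjusted p = 0.0921), without the filter (adjusted p = 0.115) and when any 1 of the 12 libraries was left out (adjusted p up to 0.15).

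Within a type, members can be ranked by their level per kilobase of exon, which allows for gene length in part. The length joins the exons of all annotated transcripts and can exceed that of the transcripts expressed, so the order of members close in level is uncertain. Cdh2 came first in both cardiac fractions, with 51.4 ± 3.40 CPM per kilobase where YFP was present and 48.1 ± 3.67 where it was absent (SD, n = 3). Snai1, Cdh11 and Zeb2 followed in the YFP-positive fraction, at 51.2 ± 29.0, 38.8 ± 3.99 and 36.1 ± 6.66, with overlapping spreads. In the YFP-negative fraction Cdh11 had 45.9 ± 2.92, Snai1 38.3 ± 8.61 and Zeb2 34.1 ± 2.96. In endoderm Cdh2 led by a wide margin, at 27.9 ± 2.86, before Vim at 11.2 ± 3.42 and Zeb2 at 6.81 ± 1.31. In hematopoietic mesoderm Zeb2 led, at 54.3 ± 17.1, before Vim at 34.3 ± 26.7 and Zeb1 at 27.3 ± 11.3, values that did not differ beyond their spread. Twist1, Snai2 and Prrx1 stayed at or below 5.67 CPM per kilobase on average in all 4 types.

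**Figure D2:**
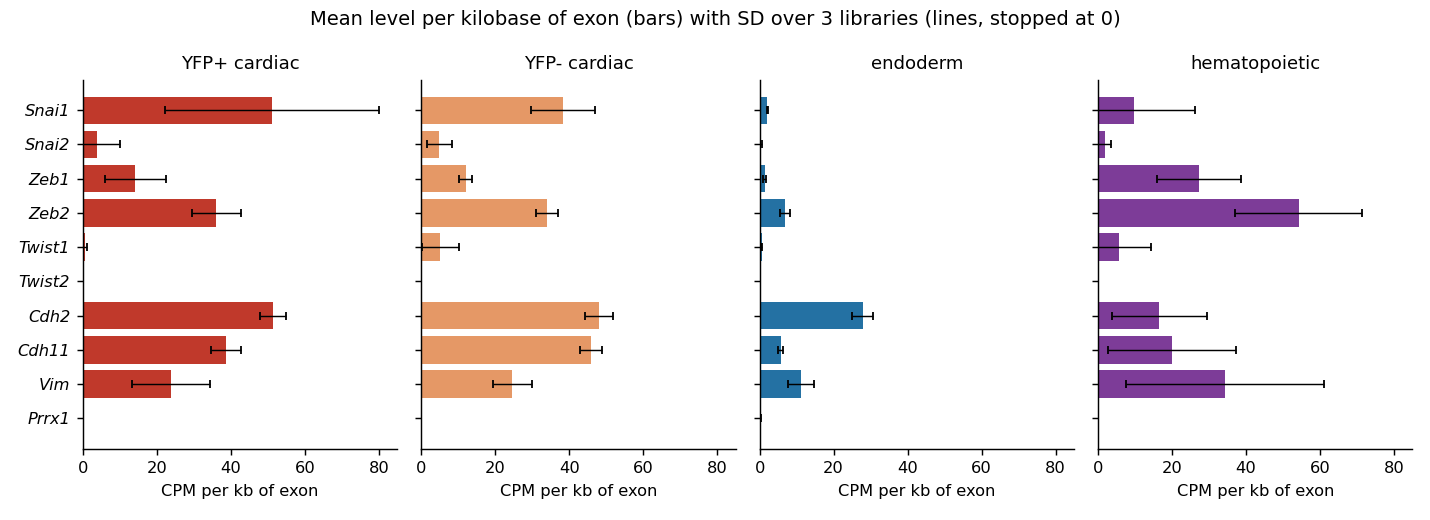
Mean level of each gene in CPM per kilobase of exon (bars, horizontal axis) with the SD over 3 libraries (lines, stopped at 0), 1 panel for each cell type. Cdh2 leads in both cardiac fractions and in endoderm, at 27.9 in the latter, and Zeb2 leads in hematopoietic mesoderm at 54.3.

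Comparing single types, 3 of 9 members were called between YFP-positive cardiac mesoderm and endoderm and 3 of 9 between YFP-negative cardiac mesoderm and endoderm, Zeb1, Zeb2 and Cdh11 each time. The background was 1.54% of genes for the first pair (0.953% higher and 0.586% lower in the cardiac fraction) and 1.31% for the second (0.706% and 0.6%). Between hematopoietic mesoderm and endoderm 4 were called, these 3 and Prrx1, against 5.65% of genes (2.42% higher and 3.23% lower in hematopoietic mesoderm). With the replicate block 2 of these 4 calls remained, those of Zeb1 and Zeb2, against 3.85% of genes. Leaving out hematopoietic replicate 3 gave 6, against 4.28% of genes, with Snai1 and Cdh2 lower and Vim higher in hematopoietic mesoderm than in endoderm, and without the call of Prrx1.

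Between the cardiac fractions and hematopoietic mesoderm the members' calls depended on hematopoietic replicate 3. With all libraries 0 of 9 members were called by edgeR, 4 had an unadjusted p under 0.05 (Cdh2, Zeb2, Zeb1 and Cdh11), and DESeq2 called 4 (12.4% of genes) and limma voom 2 (1.17%). The background in edgeR was 2.58% of genes, 1.26% higher and 1.32% lower in the cardiac fractions. The median log2 fold change of the members was 1.07, against 0.02 for all genes, and -0.28 with Prrx1, which had at most 3 counts in all 9 of these libraries, set at its bound. With both sides at 3 counts that bound reflects only the depths of the libraries. It is also the middle value, so the -0.28 does not measure a difference of the members. With hematopoietic replicate 3 left out edgeR called 4 members, Snai1, Cdh2 and Cdh11 higher and Zeb2 lower in the cardiac fractions. The background in that fit was 3.7%. The cardiac markers summed to 2217 CPM in replicate 3, against 1070 and 1197 CPM in the other hematopoietic libraries, with Mesp1 and Tbx5 at 3 counts or fewer in all of them. These sums include Kdr, also the marker of the hematopoietic sort, at 962 CPM in replicate 3 and 662 and 698 CPM in the others. The hematopoietic and endothelial markers summed to 1545 CPM in replicate 3, against 2036 and 2384 CPM. Replicate 3 had 72.2 CPM of Cdh1 against 1.92 and 2.93 CPM, and 263 CPM of Eomes against 49.2 and 28.1 CPM. Eomes is not particular to mesoderm here, with 273 to 306 CPM in endoderm. Of the endothelial genes, Erg had 0.837 CPM against 51.9 and 97.2 CPM and Pecam1 0.209 CPM against 21.4 and 28.7 CPM, whereas Cdh5 had 145 CPM against 101 and 159 CPM. The part of other cells in replicate 3 was not tested. Against hematopoietic mesoderm 0 of 9 members were called for the YFP-positive fraction (background 1.79%, with 1.15% higher and 0.635% lower in the cardiac fraction; 4 members with an unadjusted p under 0.05, 1 called by DESeq2, as 11.4% of genes were, and 1 by voom, as 0.127% were) and 0 of 9 for the YFP-negative fraction (background 0.593%, with 0.402% higher and 0.191% lower; 5 with an unadjusted p under 0.05, 2 called by DESeq2, as 8.34% of genes were, and 2 by voom, as 0.67% were). Without replicate 3 both counts were 3, against 2.79% of genes for the fraction with YFP and 1.43% for that without. With the replicate block the background was 0.939% and 0.219% for these pairs, and both counts stayed at 0.

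**Figure D3:**
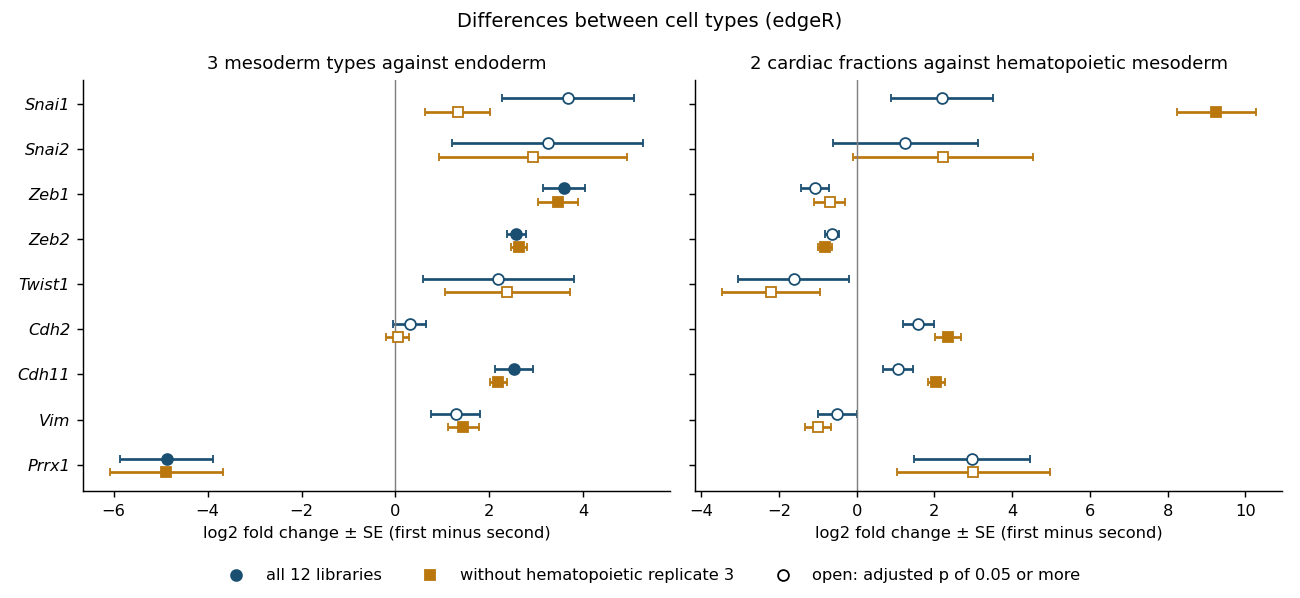
Log2 fold change ± SE of the 9 tested genes (horizontal axis) for the 3 mesoderm types against endoderm and the 2 cardiac fractions against hematopoietic mesoderm, with all 12 libraries (circles) and without hematopoietic replicate 3 (squares); filled symbols have an adjusted p under 0.05. Zeb1, Zeb2 and Cdh11 are filled in both fits on the left, whereas on the right every symbol is open with all libraries and Snai1, Zeb2, Cdh2 and Cdh11 are filled without that library.

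No member was called between YFP-positive and YFP-negative cardiac mesoderm by edgeR, DESeq2 or limma voom (0 of 9, and 0 with an unadjusted p under 0.05), and edgeR called 0% of all genes. At an unadjusted p under 0.05, 1062 of 14170 genes passed, and DESeq2 called 115. Apart from the scarce Snai2, Twist1 and Prrx1, the members differed by between -0.25 (Cdh11) and 0.42 (Snai1) log2 units. Their SEs ran from 0.21 for Zeb2 to 1.34 for Snai1, so that even a large difference in Snai1 may not have been detectable.

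The balance of N-cadherin and E-cadherin is a common summary of an EMT, and as a ratio within a library it does not depend on scaling. The log2 ratio of Cdh2 to Cdh1 counts was 6.19, 6.83 and 2.74 in YFP-positive cardiac mesoderm and 3.98, 7.64 and 2.87 in YFP-negative cardiac mesoderm. It was 5.87, 3.69 and 1.75 in hematopoietic mesoderm. In endoderm it was -1.75, -1.27 and -1.40, the only negative values. Endoderm did not overlap with any mesoderm type, with an exact two-sided permutation p of 0.1 in each of these 3 pairs (0.2 adjusted over 6 pairs of types), the smallest that 3 against 3 libraries can give. Among the mesoderm types the ratios overlapped (exact permutation p = 0.4, 0.6 and 1). Within the cardiac fractions the spread of the ratio was mostly that of Cdh1. It had 5.40, 3.82 and 59.0 CPM in YFP-positive cardiac, 22.4, 1.96 and 55.5 CPM in YFP-negative cardiac and 1.92, 2.93 and 72.2 CPM in hematopoietic mesoderm, against 718, 606 and 554 CPM in endoderm. Cdh1 was 4.65 ± 0.94 log2 units lower in the 3 mesoderm types than in endoderm (adjusted p = 0.00906). In single pairs with endoderm edgeR did not call it (adjusted p = 0.0759 to 0.172), whereas DESeq2 and limma voom called all 3. With the replicate block it was called in all 3, with adjusted p of 0.0178 and 0.0266 for the YFP-positive and YFP-negative fractions and 0.0118 for hematopoietic mesoderm.

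**Figure D4:**
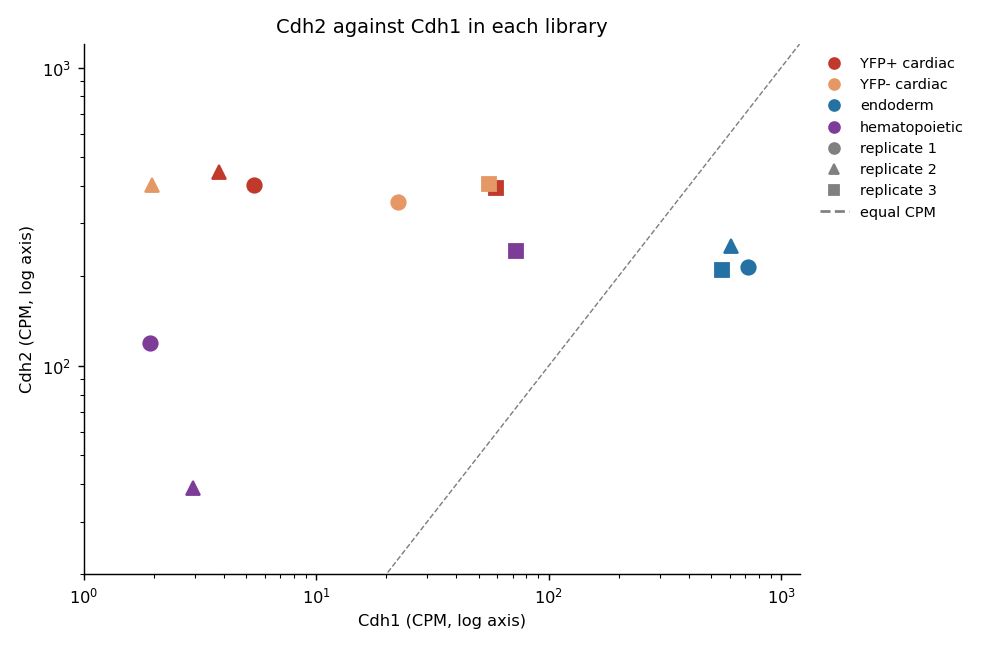
Cdh2 against Cdh1 in CPM in each of the 12 libraries, both on log axes; colours give the cell type, symbols the replicate number and the dashed line equal CPM. The 3 endoderm libraries lie below the line with Cdh1 between 554 and 718 CPM, and in each mesoderm type replicate 3 has the highest Cdh1, between 55.5 and 72.2 CPM.

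Replicate number 3 had the highest Cdh1, Epcam, Snai1 and Snai2 of its type in all 3 mesoderm types, and for Snai2 in endoderm too. Libraries of the same number share a date in the deposit, and what that date marks is not stated. The pattern was noticed after the values were seen. Number 3 was highest in all 3 mesoderm types for 3.77% of genes tested, number 1 for 4.19% and number 2 for 3.51%. The same in all 4 types held for 1.43% of genes with number 3, 2.18% with number 1 and 1.31% with number 2.

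Likeness between genes is given, as a description, by the Pearson correlation of log2(CPM + 1) over all 12 libraries, which share types and dates. Zeb1 had 0.93 with Zeb2. Snai1 had 0.88 with Cdh11 and 0.84 with Cdh2, against 0.30 with Zeb1 and 0.24 with Zeb2. Cdh2 had -0.07 with Zeb1 and -0.11 with Zeb2, and Vim had -0.36 with Cdh2. Among the 9000 genes compared, those with the pattern most like Zeb2 were the matrix gene Vcan (0.99), the ligand Fgf3 (0.98) and fibronectin, Fn1 (0.98). Those most like Zeb1 were Myc (0.96), the amino acid transporter Slc38a4 (0.95) and Fn1 (0.94). The adhesion gene L1cam (0.95) led for Snai1, followed by Bbx and Usp51. Dpysl5 (0.98), Tenm4 (0.97) and Hs3st3b1 (0.97) were most like Cdh2, and Braf (0.97), the hedgehog receptor Ptch1 (0.97) and Zfp423 (0.97) most like Cdh11. For Vim the closest were Prdx6 (0.92), Mfsd14a (0.92) and Scoc (0.88).

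Many of the epithelial genes that are lost in an EMT were lower in mesoderm. Of 24 tested genes on a list of 28 junction, polarity, keratin and epithelial regulator genes, 12 were called lower and 0 higher in the 3 mesoderm types than in endoderm, against 5.5% of all genes called lower. Of the 24, 6 passed the filter only through endoderm, with fewer than 3 mesoderm libraries at its level, so that a call for them could only be lower, and all 6 were called (Ocln, Krt7, Cldn7, Crb3, Marveld2 and Ovol2). Among the other 18 genes 6 were called. Ocln, Cldn6 and Krt7 had the lowest adjusted p. The list's median log2 fold change was -3.38, against -0.07 for all genes, and it was the same with the 5 genes that had at most 3 counts in every library of a side set at their bound. Occludin, Ocln, had 29.0, 23.5 and 28.2 CPM in endoderm and 1 count in all 9 mesoderm libraries together, at least 43.2-fold less than endoderm in each mesoderm type. The claudin Cldn6 had 239, 181 and 168 CPM in endoderm and between 0.699 and 30.1 CPM in mesoderm, a log2 fold change of -4.98 ± 0.77 (adjusted p = 0.00211). The keratin Krt7 had 10.1, 16.2 and 18.2 CPM in endoderm and at most 1 count in any mesoderm library, at least 23.9-fold less in each mesoderm type. Cldn7, Crb3, Esrp1, Grhl2, Ovol2, Marveld2, Patj, Cdh1 and Epcam were the other genes called lower. Epcam is the marker named in the endoderm label, so its direction was set by the sort. It is among the 6 called of the other 18 genes. The part of the sort in the other calls was not tested. With hematopoietic replicate 3 left out, 16 of 25 tested genes were called lower and 0 higher, against 7.14% of genes called lower in that fit. Leaving out any 1 library gave 9 to 16 calls, and the other alternatives 8 to 20. Among all genes 480 to 1508 and 581 to 3082 were called in these fits, in either direction. The tight junction gene Tjp1 was called higher in hematopoietic mesoderm than in endoderm, by 0.48 ± 0.11 log2 units (adjusted p = 0.0271), and lower in the cardiac fractions than in hematopoietic mesoderm, by -0.84 ± 0.09 log2 units (adjusted p = 0.00079). Patj went the other way in the latter comparison, 2.00 ± 0.40 log2 units higher in the cardiac fractions (adjusted p = 0.0232). No other gene of the list was called there, where 1.26% of all genes were called higher and 1.32% lower.

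The E2-box stood in most promoters of this list. Of its 20 genes with a RefSeq window, 17 held CACCTG or CAGGTG, against 22.6% of all genes in the table and 21.2% of the genes tested. By window, 21 of 29 held it (72.4%), against 20.2% of all windows. Among the 9 genes called lower in mesoderm that had a window, 8 held it, and among all 545 genes called lower with a window, 35.2% held it. List genes not called lower also held it, namely Pard3, Pard6b, Prom1, Dsp, Krt8 and Krt18, and the untested Cldn3, Cldn4 and Tjp3. Tjp1 and Cgn, not called either, did not hold it. Within the list the site thus did not set the called genes apart. The list was drawn up as epithelial genes repressed in an EMT, so the shares describe the list and are not independent of that choice. A match is not evidence of binding in these cells. The 250 bases before the start are printed for Cldn6 and Krt7, which are among the 3 genes with the lowest adjusted p, for Crb3, a polarity gene with 3 sites, and for Epcam, the marker of the endoderm sort, with the sites in capitals (RefSeq, GRCm38.p6, all plus strand: chr17:23679115-23679364, chr15:101412153-101412402, chr17:57061951-57062200 and chr17:87635729-87635978):
Cldn6: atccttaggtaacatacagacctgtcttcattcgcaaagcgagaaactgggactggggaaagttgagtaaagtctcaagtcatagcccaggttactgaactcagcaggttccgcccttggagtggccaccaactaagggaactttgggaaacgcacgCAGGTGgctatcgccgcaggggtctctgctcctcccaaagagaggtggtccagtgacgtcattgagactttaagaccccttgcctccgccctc
Krt7: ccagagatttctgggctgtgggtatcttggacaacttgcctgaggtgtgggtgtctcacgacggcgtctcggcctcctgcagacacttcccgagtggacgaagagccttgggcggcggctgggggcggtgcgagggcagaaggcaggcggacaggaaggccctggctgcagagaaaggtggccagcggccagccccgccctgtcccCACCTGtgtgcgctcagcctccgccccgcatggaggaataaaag
Crb3: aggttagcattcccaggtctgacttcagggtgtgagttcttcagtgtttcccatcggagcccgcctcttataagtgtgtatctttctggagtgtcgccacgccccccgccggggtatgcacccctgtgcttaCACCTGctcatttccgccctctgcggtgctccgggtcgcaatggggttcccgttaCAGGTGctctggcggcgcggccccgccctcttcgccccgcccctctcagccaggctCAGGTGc
Epcam: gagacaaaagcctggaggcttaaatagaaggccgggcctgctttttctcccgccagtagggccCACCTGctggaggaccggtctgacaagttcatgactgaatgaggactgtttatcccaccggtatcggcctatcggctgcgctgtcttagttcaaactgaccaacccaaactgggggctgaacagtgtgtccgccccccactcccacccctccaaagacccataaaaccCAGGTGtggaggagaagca
The site starts at position -93 from the gene start in Cldn6 and -44 in Krt7, at -118, -63 and -7 in Crb3 and at -187 and -19 in Epcam. The windows used for the shares also held a site after the start, not printed, at 41 in Cldn6 and at 26 in Crb3.

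Some genes of the mesenchymal matrix rose in mesoderm. Of 22 tested genes of cytoskeleton and matrix, 5 were called higher and 0 lower in the 3 mesoderm types than in endoderm (1.93% of genes were called higher), with a median of 0.62 log2 units. The proteoglycan Vcan rose by 3.60 ± 0.17 log2 units (adjusted p = 2.70e-07), with a mean of 83.2 CPM in endoderm and between 793 and 1572 CPM in mesoderm. Fibronectin, Fn1, the matrix protein on which mesoderm migrates, rose by 1.66 ± 0.09 log2 units (adjusted p = 3.09e-07), from at most 725 CPM in endoderm to between 1850 and 2465 CPM. The hyaluronan synthase Has2 rose by 2.24 ± 0.33 log2 units (adjusted p = 0.00159). The actin bundler Fscn1 and the matrix gene Tnc were the other 2, and the count was 3 when any 1 endoderm library was left out. Vcan was also called lower in the cardiac fractions than in hematopoietic mesoderm, by -0.60 ± 0.14 log2 units (adjusted p = 0.0439).

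Of 19 tested SNAIL relatives and inducers of EMT, 0 were called higher and 2 lower in mesoderm than in endoderm (1.93% of genes were higher and 5.5% lower), both of which passed the filter only through endoderm, among them the homeobox gene Gsc (-6.55 ± 1.41 log2 units, adjusted p = 0.0162). Between the cardiac fractions and hematopoietic mesoderm 4 of these 19 were called higher, where 1.26% of genes were. They were the receptor Fgfr1 (1.35 ± 0.21 log2 units, adjusted p = 0.00764), the forkhead gene Foxc1, which had 0 counts in all 3 hematopoietic libraries, 65.6, 7.27 and 12.2 CPM in the cardiac fraction with YFP and 12.4, 14.4 and 20.2 CPM in that without, the cardiac mesoderm factor Mesp1 and the Wnt effector Lef1. Mesp1 had 2, 1 and 0 counts in the hematopoietic libraries, so that a call for Mesp1 or Foxc1, if made, could only be higher in the cardiac fractions. Brachyury, T, was called lower, by -1.69 ± 0.40 log2 units (adjusted p = 0.045). The median of the list was 2.35 log2 units, and 1.35 with 6 genes at their bound. With hematopoietic replicate 3 left out, 5 of 21 tested were called higher and 0 lower, against 3.7% of genes called in either direction in that fit. Without the third YFP-negative library 2 of 20 were called higher. Over all fits with 1 library left out, 128 to 627 genes were called in either direction in this comparison. Of 18 cofactors and turnover factors of SNAIL and ZEB, 1 was called higher in mesoderm than in endoderm, the chromatin remodeller Smarca4 (0.43 ± 0.11 log2 units, adjusted p = 0.0279), where 1.93% of genes were called higher, and 1 was called lower in the cardiac fractions than in hematopoietic mesoderm, the kinase Gsk3b, which marks SNAIL for degradation (-0.48 ± 0.10, adjusted p = 0.0335), where 1.32% of genes were called lower. The median of these cofactors in mesoderm against endoderm was 0.03 log2 units, and the call of Smarca4 was absent under RLE scaling and library totals. Of 10 basic helix-loop-helix partners and inhibitors of TWIST, Hand1 (3.97 ± 0.78 log2 units, adjusted p = 0.00796) and Hand2 (4.74 ± 1.26, adjusted p = 0.0372) were called higher in mesoderm and Tcf15 (-5.49 ± 1.23, adjusted p = 0.0204) lower, against 1.93% and 5.5% of genes. Tcf15 passed the filter only through endoderm. Hand2 had 27.3 to 54.4 CPM in the cardiac libraries, but 0.480, 9.32 and 0.419 CPM in hematopoietic mesoderm, which overlapped with the 0.118 to 1.42 CPM of endoderm and was not called against it. With the replicate block only 1 of these 10 was called higher and 0 lower, and without the first endoderm library 0 were called. Among 18 other cadherins and catenins the endothelial cadherin Cdh5 was called higher in mesoderm (5.12 ± 1.22 log2 units, adjusted p = 0.0219), with between 101 and 159 CPM in the hematopoietic libraries and at most 2.51 CPM elsewhere, a call that was lost when any 1 endoderm library, or replicate 2 of YFP-positive cardiac mesoderm, was left out. The epithelial cadherins Cdh1 and Cdh3 were called lower, so that the list had 1 gene higher and 2 lower against 1.93% and 5.5% of genes. Cdh3 nevertheless had 26.4 and 23.2 CPM in 2 YFP-negative cardiac libraries, as much as the 20.9 to 28.3 CPM of endoderm, and 0.433 CPM in the third.

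**Figure D5:**
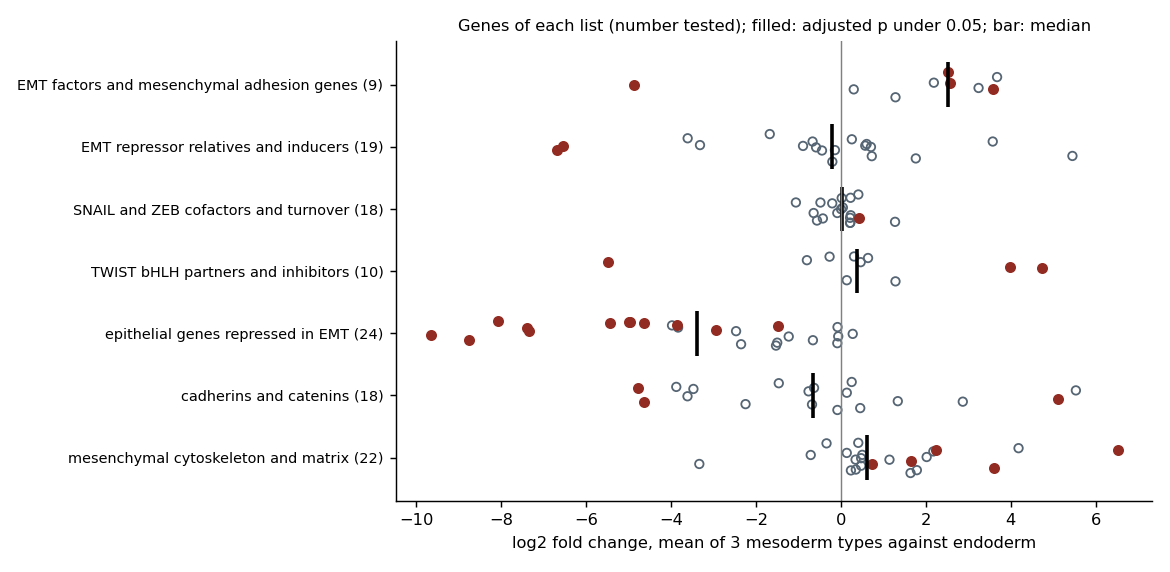
Log2 fold change of the mean of the 3 mesoderm types against endoderm (horizontal axis) for each tested gene of the 7 lists, with the number tested in brackets; filled points have an adjusted p under 0.05 and bars mark the list medians. The median is 2.52 for the 10 described genes (9 tested), -3.38 for the epithelial list and 0.62 for the matrix list; the size of the largest negative values is not exact, because those genes had counts near 0 in mesoderm.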

How the data were processed

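The data were 12 RNA-seq libraries of sorted mouse cells, made with kits for very small RNA samples. The deposited values are raw counts of reads per gene, whole numbers with no normalization. The submitters' processing notes name STAR 2.5.0a, Picard, HTSeq 0.6.0, DESeq2 and the build mm10; the annotation and the strand setting are not given in the sources used here. Reads in no gene, in more than 1 gene or at more than 1 place (5 summary categories) were left out of totals, and 18.3% to 21.5% of the listed reads were in genes. Symbols were matched for 37607 of 38924 genes. Gene positions and exon lengths came from GENCODE M21 (GRCm38), with the exons of all annotated transcripts of a gene joined.

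Counts were fitted with edgeR 4.0.16 in R 4.3.3 (glmQLFit and glmQLFTest, two-sided, TMM scaling, filterByExpr, 14170 genes kept) to all 12 libraries with 1 coefficient per type, which left 8 residual degrees of freedom. P-values were adjusted by Benjamini-Hochberg over all genes tested in a comparison. SEs come from the fold change and its F statistic. Levels are TMM-scaled CPM. The limit allowed by 0 counts reflects counting error alone: reads were amplified, and no molecular identifiers are described. The cadherin ratio added 0.5 counts to each gene. The procedure was run on simulated counts, with changes set only in well-counted genes and no library set apart. That run therefore does not cover the scarce members or the case of hematopoietic replicate 3. Members and gene lists were chosen with earlier results of these data known. Named were the 10 members, Cdh1, up to 3 called genes per list in each of the 2 combined comparisons (1 of them is not reported here), and the 3 genes most correlated with each member averaging at least 10 CPM; other genes called on a list, marker genes and the genes whose promoters are printed were named after their values were seen. Genes with at most 3 counts in every library of a type are set against 3 counts per library, which is a bound only for counts near 0.

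Alternatives were RLE scaling, library totals, DESeq2 1.42.0, no filter, a minimum mean of 5 CPM, limma 3.58.1 voom with quality weights, the replicate number as a block, thinning, fits of 2 types and leaving out each library. Same-numbered libraries share a date in the deposit, so the numbers were taken to pair them. Their deviations from the type means correlated by 0.0139 on average over 18 pairs (-0.0177 to 0.0319), against -0.00694 over 36 pairs of different number.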

Additional observations from a re-analysis of the deposited data

How the results depend on the processing

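Zeb1 and Zeb2 were called higher in each mesoderm type, and in the 3 together, than in endoderm under every alternative run. Cdh11 was called for the 3 types together and for YFP-negative cardiac mesoderm in all, for the YFP-positive fraction in 19 of 21 and for hematopoietic mesoderm in 12 of 21. Among the recomputed fold changes 1002 kept direction and call, 53 gained a call, 28 lost one and 7 reversed. Of the 9 members tested, limma voom called 6 for each cardiac fraction against endoderm, with 7.97% (YFP-positive) and 12.8% (YFP-negative) of all genes called, and fits of only the 2 types called 5 (8.28% of genes) and 6 (10.1%). For hematopoietic mesoderm against endoderm the replicate block left 2 calls of 4, and leaving out single libraries gave 2 to 6, with 180 to 976 of all genes called. Apart from Cdh11 and Prrx1 in that comparison, the block changed no member's call. Against hematopoietic mesoderm, where none was called, the YFP-positive fraction had 1 call under DESeq2, no filter and voom, and 0 to 3 with a library left out. The YFP-negative fraction had 2 under DESeq2 and voom, 1 with no filter, and 0 to 3. The 2 fractions together had 4 under DESeq2, 2 with no filter and under voom, 1 with library totals, a minimum mean of 5 CPM or thinning, and 0 to 4 with a library left out. Among all genes 13 to 1505, 10 to 1081 and 166 to 1634 were called in these 3 comparisons over the settings that kept every library compared. With a library left out 106 to 426, 16 to 247 and 128 to 627 were called. The count of members highest or lowest in 1 type ran from 2 to 5 with a library left out, and the share of all genes was not counted in those fits.

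Reversals concerned differences without a call in the full data. Snai1 in hematopoietic mesoderm against endoderm was -2.58 log2 units under voom, and -4.84 to 2.79 with a library left out. Vim ran from -1.01 to 0.14, -0.97 to 0.19 and -0.99 to 0.17 for the YFP-positive fraction, the YFP-negative fraction and both against hematopoietic mesoderm, turning without hematopoietic replicate 2. For both fractions against hematopoietic mesoderm Snai2 ran from -3.01 to 2.22 and Twist1 from -2.20 to 1.38, turning without YFP-positive replicate 3 and hematopoietic replicate 1. The difference in the log2 ratio of Cdh2 to Cdh1 between the cardiac fractions ran from -0.55 to 1.83, and that of the YFP-negative fraction against hematopoietic mesoderm from -0.35 to 2.11. The causes were not tested.

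Library totals in place of TMM moved the median of all genes in the 3 mesoderm types against endoderm from -0.07 to -0.19 log2 units. In hematopoietic mesoderm against endoderm they changed the split of higher and lower calls from 343 and 457 to 192 and 467, and in the cardiac fractions against hematopoietic mesoderm from 179 and 187 to 179 and 129. At the depth of these libraries a count of 0 allows up to 0.720 CPM.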
